A study of Mus musculus with 4 samples.

Results

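The NADPH oxidases and the antioxidant defence genes were examined in mouse cells labelled as endothelial. These were made by differentiating induced pluripotent stem cells (iPSCs), that is, somatic cells returned by reprogramming to pluripotency. The members were 38 genes named by symbol: enzymes that make superoxide, enzymes that remove superoxide and peroxide, the glutathione and thioredoxin systems, and Nrf2 (gene symbol Nfe2l2) with its inhibitor and targets. Of these, 34 had at least 1 probe set that named no other gene, out of 18193 such genes on the array. Nox1, Prdx5 and Prdx6 were carried by no probe set in the annotation used, and all 5 probe sets naming Prdx1 also named a second gene, so these 4 members have no value here. The members had 72 probe sets in all, and each gene was represented by its brightest probe set, taken over all 4 arrays.

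There was 1 Affymetrix array per mouse, for 2 healthy mice (the controls) and 2 with obesity induced by diet (DIO), called control 1, control 2, DIO 1 and DIO 2. All 4 mice are labelled as 24 weeks old, and all cells were kept in an endothelial medium and trypsinized before RNA isolation. The sources used here do not give strain, sex, diet, the number of iPSC lines per mouse or any sort for endothelial cells, and the cell type entry reads iPSC although the titles name endothelial cells. The duplicates are called biological, and the p-values measure only the spread between these 4 samples, part of which may be technical. All values are log2 expression levels as the authors deposited them, and a difference is the DIO mean minus the control mean, so that 1 unit is a doubling. Errors are standard errors (SE) from limma, a linear model fitted to all genes at once, with 2 arrays per group.

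NADPH oxidases pass electrons from NADPH to oxygen and so make superoxide. Superoxide dismutases turn superoxide into hydrogen peroxide, and catalase, the glutathione peroxidases and the peroxiredoxins break peroxides down. Glutathione and thioredoxin supply the electrons for the glutathione peroxidases and the peroxiredoxins and are themselves recharged by NADPH. Keap1 holds the transcription factor Nrf2 at a low level until oxidants or electrophiles modify it, after which Nrf2 turns on many of these genes. In the endothelium superoxide destroys nitric oxide, the vasodilator that endothelial cells release.

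Several of the members belong to the known Nrf2 targets, so the 250 bases before the start sites of the members were searched for the core letters of the antioxidant response element, to which Nrf2 binds. The letters searched were TGACNNNGC and TGAGNNNGC, on both strands. RefSeq promoters of the GRCm38.p6 assembly were found for 32 of the 38 members, of which 8 (25%) held either motif, beside 25.7% of all 27025 genes in that table. TGACNNNGC stood in the windows of 5 members (15.6%, beside 11.5% of all genes) and TGAGNNNGC in those of 3 (9.38%, beside 16.3%). A match of letters is a description and no evidence of binding. The 3 windows below were chosen from members with a match and the same order of arrays, highest in control 1 and lowest in control 2. They are read 5′ to 3′ on the strand of the gene, with the matches in capitals. The Srxn1 window (chr2:152105274-152105523, plus strand) holds TGAGTCAGC, whose first base lies 45 bases before the start site, and GCCGACTCA at 158 bases, the same motif on the other strand. The Txnrd1 window (chr10:82858956-82859205, plus strand) lies before 1 of the 3 start sites listed for this gene and the Sod1 window (chr16:90220512-90220761, plus strand) before the single one, and each holds TGACNNNGC on the other strand, at 92 and 56 bases.
Srxn1: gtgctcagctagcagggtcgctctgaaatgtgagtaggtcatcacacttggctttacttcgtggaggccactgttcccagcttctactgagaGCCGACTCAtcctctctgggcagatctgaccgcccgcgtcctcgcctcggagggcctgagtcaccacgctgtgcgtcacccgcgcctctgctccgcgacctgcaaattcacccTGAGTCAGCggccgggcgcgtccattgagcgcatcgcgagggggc
Txnrd1: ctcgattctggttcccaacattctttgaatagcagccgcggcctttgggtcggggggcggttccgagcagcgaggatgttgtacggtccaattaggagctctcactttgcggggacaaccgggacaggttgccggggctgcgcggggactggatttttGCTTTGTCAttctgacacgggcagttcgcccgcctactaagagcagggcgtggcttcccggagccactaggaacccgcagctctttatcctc
Sod1: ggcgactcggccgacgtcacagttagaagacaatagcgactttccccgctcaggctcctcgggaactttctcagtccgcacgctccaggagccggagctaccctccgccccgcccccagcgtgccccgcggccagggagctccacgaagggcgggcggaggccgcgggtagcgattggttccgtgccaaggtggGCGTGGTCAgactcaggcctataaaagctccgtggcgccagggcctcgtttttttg

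The remaining members with a match were Nfe2l2 (TGACTCCGC), Gclm (GCACCGTCA), Prdx1 (GCTGAGTCA), Slc7a11 (GCTTTCTCA) and Txn2 (GCCCTCTCA), the last 4 on the other strand. Among the 5 measured glutathione genes, Gss had a window with no match, and Gclc and Gsr were not in the promoter table. Gclm had the same order of arrays as the printed genes. So had Gss, Sod2, Prdx3, Txnrd2, Keap1 and Nqo1, whose windows held no match. A link between match and order was not tested.

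None of the 34 measured members passed the adjusted threshold of 0.05 in limma, and 0 of all 18193 genes did (0%). At an unadjusted p below 0.05 there was 1 member, Cat, which was higher in DIO, where all genes gave 6.58% in either direction and 3.26% in that one. The DIO mean was above the control mean for 19 members (55.9%), beside 53.3% of all genes. For 5 members both DIO values exceeded both control values (14.7%, beside 21.4%), and below both for 3 (8.82%, beside 17%). These shares of members are near or below those of all genes. The median difference over the members was 0.07, beside 0.02 over all genes. It was −0.09 against control 1 alone and 0.20 against control 2 alone, so its sign depended on which control was used. The controls were farther apart than the group means for 27 members (79.4%), beside 63.5% of all genes.

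**Figure D1:**
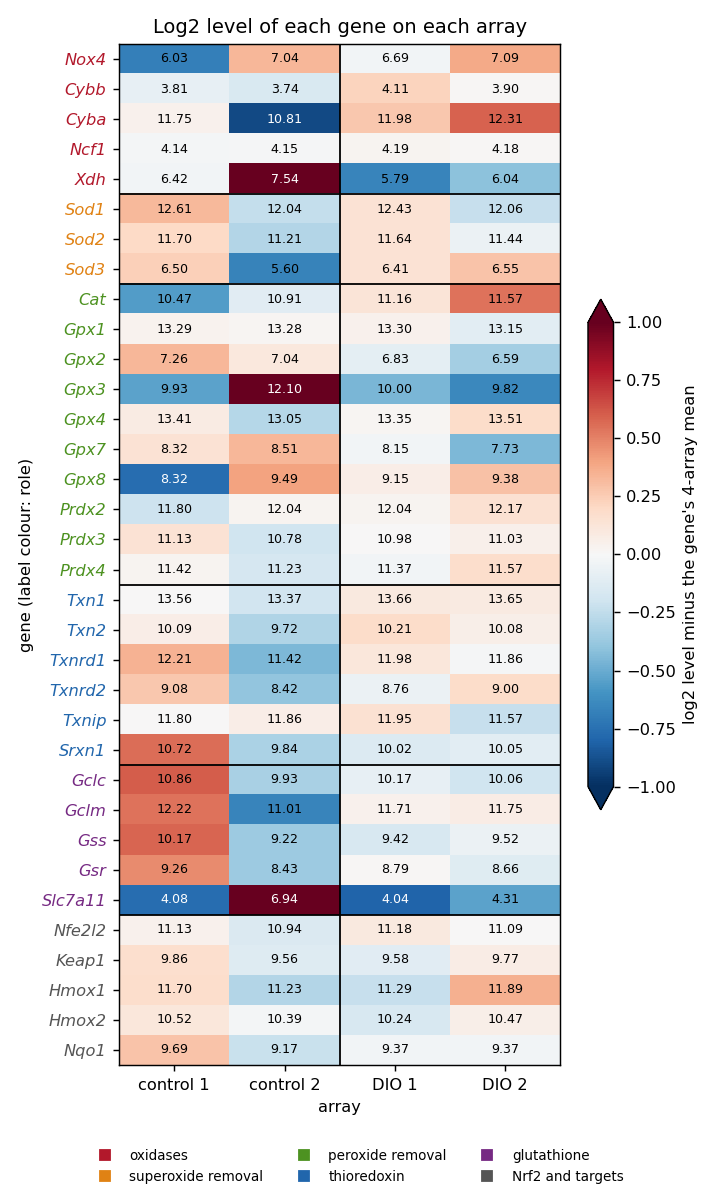
Rows are the 34 measured members, ordered by role, and columns the 4 arrays; the number in each cell is the log2 expression level and the colour its distance from the gene's own 4-array mean, with colours saturating at 1 log2 unit. The glutathione genes Gclc, Gclm, Gss and Gsr are reddest in control 1 and bluest in control 2, while Slc7a11, Gpx3 and Xdh are highest in control 2.

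Some facts of the arrays touch all results below. The 4 array medians lay between 5.61 and 5.65. The mean signal of the 18S ribosomal RNA probe sets was 12.60 and 12.65 in the controls against 12.30 and 11.96 in DIO, and the 3′ minus 5′ signal of actin, a measure of RNA breakdown, was between 0.21 and 0.33. Control 2 stood apart by epidermal genes: all 17 measured markers, Dsp and Perp the brightest, were highest there, and their mean was 11.24 against 6.98 in control 1, 7.92 in DIO 1 and 8.58 in DIO 2. The 15 pluripotency markers, led by Dppa5a and Pou5f1, averaged 10.00 and 9.16 in the controls against 10.43 and 9.35 in DIO. The 15 endothelial markers averaged 6.02 and 6.12 in the controls against 5.95 and 5.86 in DIO, with Cdh5 and Esam the brightest. The 3 dimmest, Tie1, Emcn and Fli1, were between 3.44 and 3.88 on every array, near the low end of the values. The 9 simple epithelial markers, Krt8 and Krt18 the brightest, averaged 12.32 and 12.35 in the controls against 12.40 and 12.41 in DIO, and 12 yolk sac and liver markers, led by Ttr and Gata6, 5.58 and 7.33 against 6.15 and 6.47. The 12 fibroblast and smooth muscle markers, led by Acta2 and Tagln, averaged 6.72 and 7.41 against 6.91 and 7.14. Of 12 trophoblast and 12 erythroid markers 8 each were measured, led by Tfap2c and Ascl2 and by Gata1 and Epor, with means of 7.40 and 7.14 against 7.61 and 7.90 and of 4.70 and 4.59 against 4.79 and 4.83. On every array the endothelial list had a lower mean than the pluripotency and simple epithelial lists. Levels of different probe sets are not strictly comparable. In such bulk samples fewer cells of a type and less RNA per cell cannot be told apart. The part of these markers and of RNA quality in the differences below was not tested.

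Among the oxidase genes, Cyba and Xdh had the largest differences, in opposite directions, and neither passed. Cyba encodes p22phox, the membrane subunit that Nox1, Nox2 and Nox4 need for stability. Its level was 11.75 and 10.81 in control 1 and 2 against 11.98 and 12.31 in DIO 1 and 2. Both DIO arrays were thus above both controls, with control 2 the lowest, and the difference was 0.86 ± 0.36 (limma, adjusted p = 0.728), with a 95% interval from −0.14 to 1.86. It was 0.39 against control 1 and 1.33 against control 2. Xdh encodes xanthine oxidoreductase, which makes uric acid and, in its oxidase form, superoxide and peroxide. Its level was 6.42 and 7.54 in control 1 and 2 against 5.79 and 6.04 in DIO 1 and 2. Both DIO arrays were below both controls, with control 2 the highest, and the difference was −1.07 ± 0.41 (limma, adjusted p = 0.728). Against control 2 alone it was −1.63, with an adjusted p of 0.0362 in limma. That fit has 1 control array, the one with the highest means of the epidermal, yolk sac and liver, fibroblast and smooth muscle, and endothelial markers. The fit assumes that this array varies like the DIO arrays, since it takes its residual spread from the DIO pair. It gives no measure of the spread between control mice. Over the settings tried for Xdh the adjusted p ran from 0.0362 to 0.9999. Against control 1 alone it was −0.51.

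Nox4, the constitutively active oxidase that releases mainly hydrogen peroxide, was at 6.03 and 7.04 in the controls against 6.69 and 7.09 in DIO. The groups overlapped, control 1 was the lowest array, and the difference of 0.35 ± 0.40 turned to −0.15 against control 2. Its second probe set gave 0.27. Cybb, the phagocyte catalytic subunit Nox2, and Ncf1, its cytosolic organizer p47phox, stood at percentiles 12.6 and 17.4 of the gene means, so how far they lie above background is unknown. Cybb was between 3.74 and 4.11 and Ncf1 between 4.14 and 4.19 over the 4 arrays, with differences of 0.23 ± 0.14 and 0.04 ± 0.12. Both DIO arrays were above both controls for each, by small gaps, and another probe set of Cybb was lower in DIO, at −0.22. Of 12 phagocyte markers, 9 had a higher DIO mean and the list averaged 6.03 and 5.86 in the controls against 6.14 and 6.04 in DIO. Both DIO arrays were above both controls for 3 of the 12 (25%, beside 21.4% of all genes), namely Ptprc, Adgre1 and Fcer1g. They were below both for 1, Csf1r (8.33%, beside 17%). The 2 dimmest of the list were the pan-leukocyte marker Ptprc, between 3.84 and 4.11, and the myeloid integrin Itgam, between 3.32 and 3.85. The brightest 2, Csf1r and Cd68, went against the majority of the list. Csf1r differed by −0.49 ± 0.14, with both DIO arrays below both controls and the smallest p of the list (limma, adjusted p = 0.728), and Cd68 by −0.07 ± 0.31. Of the 9 further oxidase partners measured, none passed. Rac1, the GTPase that activates Nox1 and Nox2, differed by −0.18 ± 0.13, Poldip2, a Nox4 partner, by 0.03 ± 0.26 and Noxo1, the Nox1 organizer, by 0.18 ± 0.15.

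**Figure D2:**
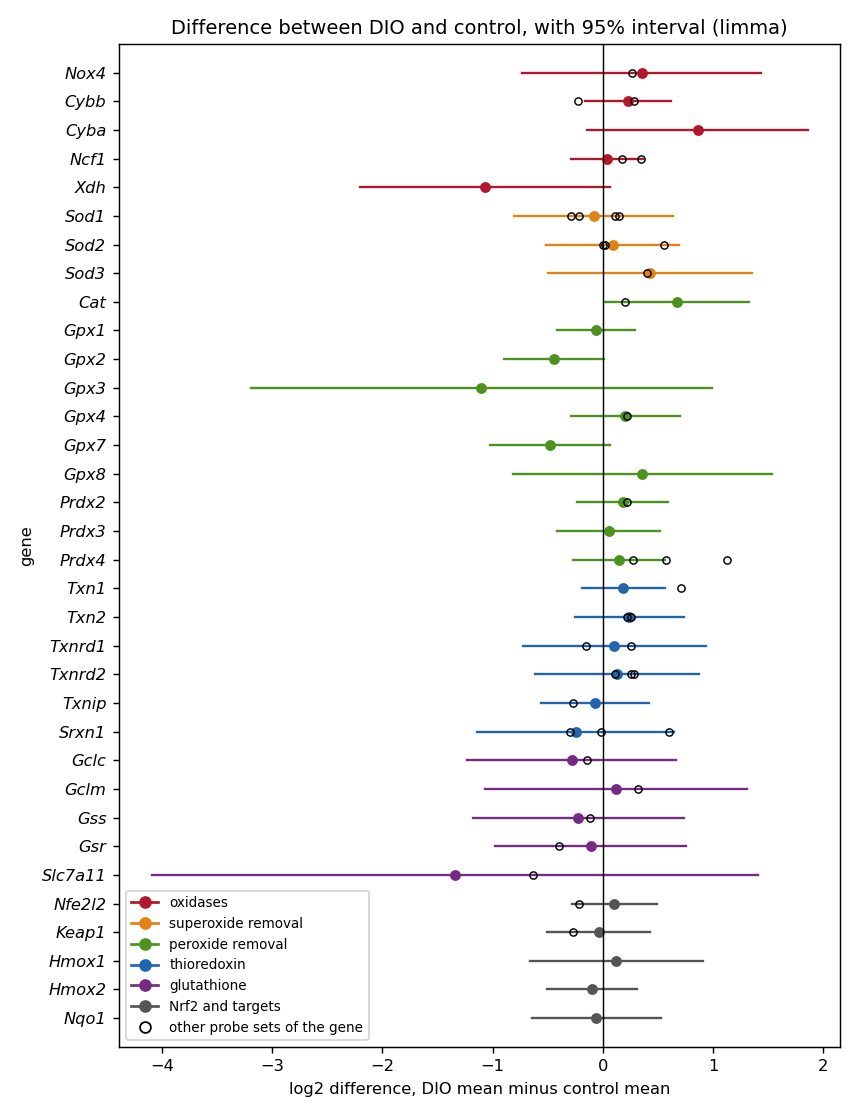
Filled points give the log2 difference (DIO mean minus control mean) of each of the 34 members, bars its 95% interval from limma, and open circles the other probe sets of the same gene. The interval of Cat alone leaves out 0, and the widest belong to Slc7a11 and Gpx3.

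At their representative probe sets the superoxide dismutases did not separate the groups. Sod1, the cytosolic copper-zinc enzyme, was at 12.61 and 12.04 in the controls against 12.43 and 12.06 in DIO, a difference of −0.08 ± 0.26. Sod2, the mitochondrial manganese enzyme, was at 11.70 and 11.21 in the controls against 11.64 and 11.44 in DIO, a difference of 0.09 ± 0.22. For both genes control 1 was the highest array and control 2 the lowest, with the DIO arrays between them. Sod3, the secreted enzyme that binds to the vessel matrix, was at 6.50 and 5.60 in the controls against 6.41 and 6.55 in DIO. The difference of 0.43 ± 0.34 rested on control 2 and was −0.02 against control 1. A dimmer probe set of Sod2 differed by 0.55 ± 0.22, with both DIO arrays above both controls. The representative one of Sod2 and both others, at 0.02 and 0.004, did not separate the groups. A dimmer probe set of Sod1 differed by −0.29 ± 0.15, with both DIO arrays below both controls. Of the 4 probe sets of Sod1 other than the representative, 2 had a higher and 2 a lower DIO mean.

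Of the 10 measured genes of peroxide removal, 6 had a higher and 4 a lower DIO mean. The groups did not overlap for Cat, Gpx2 and Gpx7. That is 1 gene above (10%, beside 21.4% of all genes) and 2 below (20%, beside 17%). Cat encodes catalase, the peroxisomal enzyme that breaks hydrogen peroxide down without a cofactor that must be recharged. It was at 10.47 in control 1, 10.91 in control 2, 11.16 in DIO 1 and 11.57 in DIO 2. Both DIO arrays were above both controls, and the difference was 0.67 ± 0.24 with a 95% interval from 0.01 to 1.33 (limma, adjusted p = 0.728). Its second probe set kept this order, from 10.88 and 10.91 in the controls to 11.05 and 11.14 in DIO, with a smaller difference of 0.20 ± 0.12. The difference of the representative probe set was 0.89 against control 1 and 0.45 against control 2.

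Gpx2, the epithelial glutathione peroxidase known from the gut, was at 7.26 and 7.04 in the controls against 6.83 and 6.59 in DIO. Gpx7, a peroxidase of the endoplasmic reticulum, was at 8.32 and 8.51 in the controls against 8.15 and 7.73 in DIO. Both DIO arrays were below both controls for both genes, and the differences were −0.44 ± 0.17 for Gpx2 and −0.48 ± 0.20 for Gpx7 (limma, adjusted p = 0.728 for each). The 95% intervals, from −0.90 to 0.01 and from −1.02 to 0.07, included 0. As the groups do not overlap, leaving out any 1 array could not change the sign. The differences then lay between −0.56 and −0.32 for Gpx2 and between −0.69 and −0.27 for Gpx7. The 12 intestinal epithelial markers, led by Muc13 and Cdx2, averaged 5.41 and 5.43 in the controls against 5.44 and 5.40 in DIO, and 6 of them had a higher DIO mean.

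Gpx3, the secreted glutathione peroxidase of plasma, was at 9.93 in control 1, 12.10 in control 2, 10.00 in DIO 1 and 9.82 in DIO 2. Control 2 was high alone and the other 3 arrays lay close together. The difference of −1.10 ± 0.76 did not pass (limma, adjusted p = 0.782), was −2.19 against control 2 and −0.02 against control 1. Gpx8, another peroxidase of the endoplasmic reticulum, was low in control 1 alone, at 8.32 against 9.49 in control 2, 9.15 in DIO 1 and 9.38 in DIO 2. Its difference of 0.36 ± 0.43 turned to −0.22 against control 2.

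Gpx1, the main cytosolic glutathione peroxidase, was at 13.29 and 13.28 in the controls against 13.30 and 13.15 in DIO, a difference of −0.06 ± 0.13. Gpx4, which removes lipid peroxides and so protects against ferroptosis, was at 13.41 and 13.05 in the controls against 13.35 and 13.51 in DIO, a difference of 0.20 ± 0.18. The 95% intervals, from −0.41 to 0.30 for Gpx1 and from −0.29 to 0.70 for Gpx4, leave out a doubling or halving of the level. Prdx2, a cytosolic peroxiredoxin, and Prdx3, that of mitochondria, differed by 0.18 ± 0.15 and 0.05 ± 0.17, with overlapping groups. Prdx4, that of the endoplasmic reticulum, differed by 0.15 ± 0.15 at its representative probe set. A dimmer one was at 7.14 and 7.66 in the controls against 8.11 and 8.95 in DIO, so that the difference was 1.13 ± 0.35 (limma over all probe sets, adjusted p = 0.617). All 4 probe sets of Prdx4 had a higher DIO mean, from 0.15 to 1.13.

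**Figure D3:**
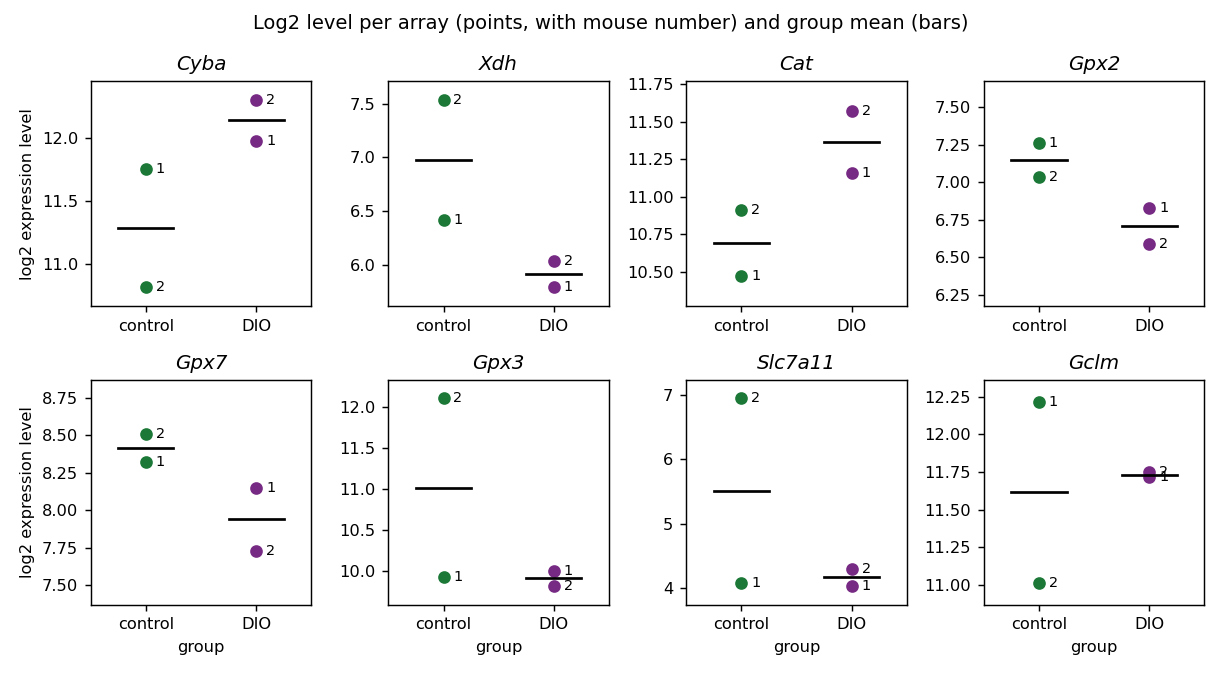
Each panel shows the log2 expression level of 1 gene on the 4 arrays, with the mouse number beside each point and a bar at the group mean; the y axes differ between panels. Cyba, Xdh, Cat, Gpx2 and Gpx7 have groups that do not overlap, Gpx3 and Slc7a11 are high in control 2 alone, and for Gclm the DIO arrays lie between the controls.

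In the thioredoxin system, Txn1 separated the groups by a small step. Txn1, the cytosolic thioredoxin that reduces peroxiredoxins, was at 13.56 and 13.37 in the controls against 13.66 and 13.65 in DIO, so that the difference was 0.19 ± 0.14 (limma, adjusted p = 0.788). Its second probe set was at 5.90 and 5.83 in the controls against 6.51 and 6.63 in DIO. There both DIO arrays were above both controls too, with a difference of 0.71 ± 0.13 (limma over all probe sets, adjusted p = 0.617). Txn2, the mitochondrial thioredoxin, was at 10.09 and 9.72 in the controls against 10.21 and 10.08 in DIO, a difference of 0.24 ± 0.18 with overlapping groups. Its other probe sets gave 0.22 and 0.25, with both DIO arrays above both controls.

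Txnrd1, the cytosolic thioredoxin reductase, was at 12.21 and 11.42 in the controls against 11.98 and 11.86 in DIO, a difference of 0.10 ± 0.30. Srxn1, sulfiredoxin, which restores overoxidized peroxiredoxins, was at 10.72 and 9.84 in the controls against 10.02 and 10.05 in DIO, a difference of −0.24 ± 0.33. The DIO arrays of both genes lay between control 1 and control 2. The probe sets of Srxn1 did not agree: a dimmer one differed by 0.60 ± 0.20 with both DIO arrays above both controls. Txnrd2, the mitochondrial reductase, differed by 0.13 ± 0.27, and Txnip, the glucose-induced inhibitor of thioredoxin, by −0.07 ± 0.18 with levels between 11.57 and 11.95.

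Of the 38 member probe sets that did not represent their gene, 14 (36.8%) had both DIO arrays above both controls and 2 (5.26%) below. Over all 16752 such probe sets these shares were 21.4% and 20.6%. Of all 72 member probe sets, 6 had an unadjusted p below 0.05, where 8.04% of every probe set did, and none passed after adjustment. Probe sets of 1 gene share their RNA and are not independent. Of the 23 members with several probe sets, 5 had at least 1 with the sign opposite to the representative: Cybb, Sod1, Txnrd1, Srxn1 and Nfe2l2.

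The glutathione genes differed more between the controls than between the groups. Gclc and Gclm encode the catalytic and modifier subunits of glutamate-cysteine ligase, the rate-limiting enzyme of glutathione synthesis, Gss the synthase of the next step, and Gsr the reductase that recycles oxidized glutathione. Gclc was at 10.86 in control 1 and 9.93 in control 2 and at 10.17 and 10.06 in DIO. Gclm was at 12.22 in control 1 and 11.01 in control 2 and at 11.71 and 11.75 in DIO. For these genes and for Gss and Gsr, control 1 was the highest array, control 2 the lowest, and the DIO arrays lay between. From control 1 to control 2 the levels differed by −1.20 for Gclm, −0.95 for Gss, −0.93 for Gclc and −0.83 for Gsr, and between the DIO arrays by 0.13 at most. The differences between groups were −0.28 ± 0.35 for Gclc, 0.12 ± 0.43 for Gclm, −0.22 ± 0.35 for Gss and −0.11 ± 0.32 for Gsr. All 4 were below 0 against control 1, from −0.75 for Gclc to −0.48 for Gclm, and above 0 against control 2, from 0.18 for Gclc to 0.72 for Gclm.

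Slc7a11, the cystine importer that feeds glutathione synthesis, had another pattern. It was at 4.08 in control 1, 6.94 in control 2, 4.04 in DIO 1 and 4.31 in DIO 2. Control 2 was high alone, and the difference was −1.34 ± 1.01 (limma, adjusted p = 0.789), with a 95% interval from −4.09 to 1.41. Its second probe set was likewise highest in control 2, at 5.29 against 3.42, 3.42 and 4.03 on the others. Against control 2 alone, in the same fit with 1 control array and the residual spread of the DIO pair, Slc7a11 and Gpx3 were below the threshold (limma, adjusted p = 0.0233 and 0.0241), as were 2.47% of all genes in the lower direction, while the adjusted p of each reached 0.9999 over the other alternatives. Against control 1 alone they were at 0.09 and −0.02. The array with these high values also had the highest means of the epidermal, yolk sac and liver, and fibroblast and smooth muscle markers. Its mean of the endothelial markers was the highest too, by a small margin (6.12, against 6.02 in control 1). Whether any of these bears on Slc7a11 or Gpx3 was not tested.

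**Figure D4:**
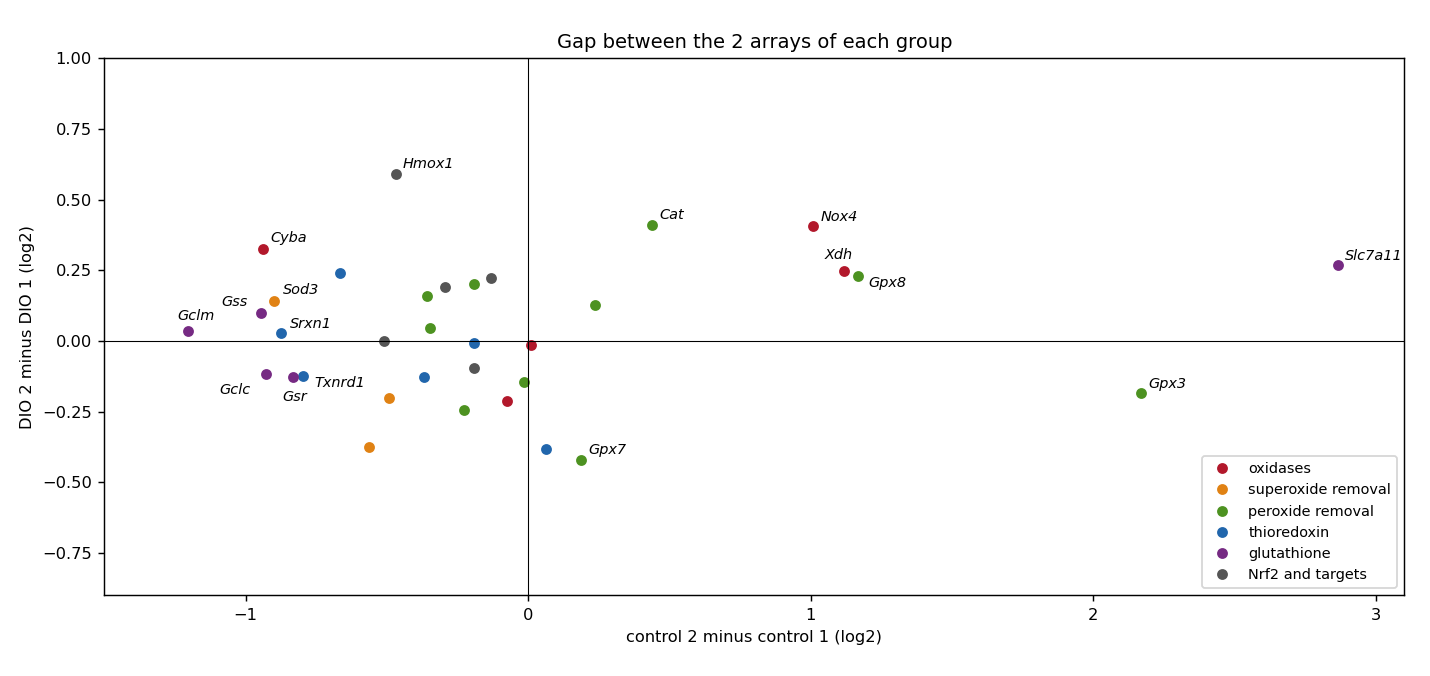
Each point is 1 of the 34 members, placed by the log2 gap between the control arrays (x axis, control 2 minus control 1) and between the DIO arrays (y axis, DIO 2 minus DIO 1), on equal scales. The control gaps run from −1.20 for Gclm to 2.86 for Slc7a11, while the DIO gaps run from −0.42 for Gpx7 to 0.59 for Hmox1.

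The order seen in the glutathione genes, control 1 highest and control 2 lowest, held for 12 of the 34 members (35.3%), beside 17.5% of all genes. The other 8 were Sod1, Sod2, Prdx3, Txnrd1, Txnrd2, Srxn1, Keap1 and Nqo1. The 12 include Gclc, Gclm, Gss and Gsr, in which the order was first seen, so that part of the count was given beforehand. The members were also brighter than all genes, with a mean of 9.86 against 7.14 in control 1. The shares in this paragraph were not matched for level. Control 2 was below control 1 by 0.5 or more for 11 members (32.4%, beside 13.4% of all genes) and above it by as much for 5 (14.7%, beside 8.83%). Control 2 was the lowest array for 21 members, beside 41% of all genes, and below control 1 for 24 members, beside 62.1%. DIO 2 was below DIO 1 for 16 members, beside 51.6%. The DIO arrays were 0.5 or more apart for 1 member, Hmox1 (2.94%, beside 6.37%). These are single arrays and allow no test.

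Nfe2l2 and Keap1 had small differences between the groups. Nfe2l2 was at 11.13 and 10.94 in the controls against 11.18 and 11.09 in DIO, a difference of 0.10 ± 0.14. Keap1, which targets Nrf2 for degradation, differed by −0.04 ± 0.17. The 95% intervals, from −0.28 to 0.49 and from −0.51 to 0.43, leave out a doubling or halving of either transcript. Hmox1, the inducible heme oxygenase, was at 11.70 and 11.23 in the controls against 11.29 and 11.89 in DIO, so the groups overlapped and the difference was 0.12 ± 0.29. Hmox2, the constitutive form, differed by −0.10 ± 0.15, and Nqo1, a quinone reductase widely used as an Nrf2 readout, by −0.06 ± 0.21. Transcript levels of Nfe2l2 do not report the amount of Nrf2 protein.

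Further genes of the pathways were read from lists that hold no member, and none of them passed. Of 21 other Nrf2 targets and partners, 4 had a higher DIO mean (19%, beside 53.3% of all genes) and 17 a lower one. Both DIO arrays were below both controls for 10 of them (47.6%, beside 17% of all genes) and above for 1 (4.76%, beside 21.4%). The 10 were Blvra, Ephx1, Cbr1, Cbr3, Abcc1, Mafg, Mafk, Maff, Cul3 and Nfe2l1. The count thus pools targets with partners and is no measure of Nrf2 activity, and the list was chosen with earlier results of these data known. The listed genes were also brighter than all genes, with a mean of 9.56 against 7.14 in control 1, and the shares were not matched for level. Of the genes kept without the dimmest 40%, both DIO arrays were below both controls for 21.5% and above for 15.5%. The median difference of the 21 genes was −0.22, and it was −0.38 against control 1 and −0.11 against control 2. Maff, a small Maf protein that pairs with Nrf2, was at 8.43 and 8.69 in the controls against 7.75 and 7.68 in DIO, so that the difference was −0.85 ± 0.15 (limma, adjusted p = 0.728). Cbr3, a carbonyl reductase, was at 9.75 and 9.25 in the controls against 8.79 and 8.48 in DIO, a difference of −0.86 ± 0.24. The ferritin heavy chain Fth1 and the autophagy receptor Sqstm1, the brightest of that list, differed by −0.13 ± 0.15 and −0.27 ± 0.23.

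Of 14 measured genes that supply NADPH, 10 were higher on average in DIO, and the median difference was 0.14. The pentose phosphate enzymes Tkt, Taldo1 and Pgd differed by 0.06 ± 0.16, −0.08 ± 0.14 and −0.25 ± 0.14. Me1, the cytosolic malic enzyme, was at 10.21 and 10.72 in the controls against 9.78 and 9.89 in DIO, so that both DIO arrays were lower, by 0.63 ± 0.22 on average. Of 24 genes that use or recycle glutathione, 12 had a higher and 12 a lower DIO mean, with a median of −0.03. Gstp1 differed by 0.003 ± 0.22 and Gsto1 by −0.28 ± 0.36. Chac1, which breaks glutathione down, differed by −0.66 ± 0.25 and Mgst2 by −0.49 ± 0.21, each with both DIO arrays below both controls. That was so for 4 of the 24 genes (16.7%, beside 17% of all genes), and 3 were above (12.5%, beside 21.4%). Of 22 genes of other redox repair, 8 had a higher DIO mean. Both DIO arrays were above both controls for 3 of these 22 (13.6%, beside 21.4% of all genes) and below for 5 (22.7%, beside 17%). Msrb3, a methionine sulfoxide reductase, differed by −0.93 ± 0.30, with both DIO arrays below both controls. The metallothioneins Mt1 and Mt2 differed by 0.41 ± 0.15 and 0.30 ± 0.16, with both DIO arrays above both controls. Gpx5 and Gpx6, glutathione peroxidases not among the members, differed by 0.13 ± 0.13 and 0.31 ± 0.39.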

How the data were processed

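The deposited table holds log2 expression levels of 45101 probe sets on 4 arrays, as the authors made them; the scale was read from the values, which run from 2.59 to 14.56, and the sources used here do not give the background correction, normalization and summary method. After 64 control probe sets were set aside, 34945 probe sets named 1 gene in the platform annotation, 932 several and 9160 were not listed. Each of 18193 genes was represented by its probe set with the highest mean, with no filter on dim probe sets. Groups came from the sample titles. The groups were set against each other with lmFit and eBayes of limma 3.58.1 (R 4.3.3, tests 2-sided), p-values were adjusted by Benjamini-Hochberg over all genes, and the threshold was 0.05; a second fit covered every probe set. The fit was tested on simulated data, with independent arrays and the same spread in both groups. That test gives no assurance for controls that lie farther apart than the DIO arrays. An exact permutation test of 2 arrays against 2 cannot reach this threshold. The number of arrays limits the precision: the 95% interval of a gene reached a median of 0.46 to either side. No detection calls were used.

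The members and lists were chosen with earlier results of these data known. Levels on every array were given for members past the threshold or with an unadjusted p under 0.05, for those with groups that do not overlap and a difference of at least 0.3, and in each role for the 2 brightest and the 2 with the largest difference. Of each further pathway list the 2 brightest genes and the 2 with the smallest p were named, and of each marker list the 2 brightest. Gpx5 and Gpx6 form a list of their own. Outside this rule, Tie1, Emcn and Fli1, the dimmest endothelial markers, and Ptprc and Itgam, the dimmest phagocyte markers, were named. So were Adgre1 and Fcer1g, and the further Nrf2 targets and partners with both DIO arrays below both controls. Gpx8 on every array and the dimmer probe sets were added after their values were seen. Alternatives were quantile normalization, centring, a filter on dim genes, other choices of probe set, a trended and robust eBayes, array weights, the mouse number as a block and leaving out each array. Promoter sequences came from RefSeq.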

Additional observations from a re-analysis of the deposited data

How the results depend on the processing

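The count of members past the threshold stayed at 0 under quantile normalization, centring, the filter on dim genes, averaged or otherwise chosen probe sets, the fit of every probe set, a trended and robust eBayes, array weights and the replicate block. Of 303 member differences under these settings 4 changed sign: Keap1 (0.016) and Ncf1 (−0.027) after quantile normalization, and Nfe2l2 (−0.057) and Srxn1 (0.011) with averaged probe sets. Members with both DIO arrays above both controls numbered 3 of 31 without the dimmest 40% of genes (9.68%, beside 15.5% of all genes kept), and 7 of 34 under quantile normalization, centring or averaged probe sets (20.6%, beside 24.2%, 25% and 22.3%); 4 were below both under quantile normalization and 3 under the others. With every probe set tested the counts were over 72 probe sets, of which 44 had a higher DIO mean, 19 both DIO arrays above (26.4%, beside 21.4% of every probe set) and 5 below (6.94%, beside 18.7%). The mouse numbers name different animals. Deviations of same-numbered arrays from their group means correlated at 0.33 over all genes, and with the number as a replicate block 0 members and 0 of all genes passed.

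Leaving out 1 array in turn gave 0 to 483 genes past the threshold and 0 to 3 members, the highest in each case without control 1, the members then being Gpx3, Slc7a11 and Xdh; the lone control is then assumed to vary like the DIO arrays, whose pair alone gives the residual spread. Members with a higher DIO mean ranged from 13 to 24, those above the controls from 8 to 23 and those below from 5 to 16, with fewer arrays to separate. Without control 1, 23 members were above (67.6%, beside 50.1% of all genes) and 6 below (17.6%, beside 29.6%). Without control 2 these were 8 (23.5%, beside 33.5%) and 16 (47.1%, beside 42.3%), without DIO 1 11 (32.4%, beside 32.8%) and 6 (17.6%, beside 29.2%), and without DIO 2 9 (26.5%, beside 33.6%) and 5 (14.7%, beside 25.4%). Over the same fits the median difference ranged from −0.089 to 0.20. For 14 members the direction held without any 1 array, as it must wherever the groups do not overlap. For 20 it turned without at least 1 of them: Gclc from −0.75 to 0.18, Gclm from −0.48 to 0.72, Gpx1 from −0.13 to 0.014, Gpx8 from −0.22 to 0.94, Gsr from −0.53 to 0.30, Gss from −0.69 to 0.25, Hmox1 from −0.17 to 0.42, Hmox2 from −0.21 to 0.014, Keap1 from −0.19 to 0.11, Nox4 from −0.15 to 0.86. The others were Nqo1 from −0.32 to 0.20, Prdx3 from −0.12 to 0.23, Slc7a11 from −2.77 to 0.093, Sod1 from −0.36 to 0.20, Sod2 from −0.16 to 0.34, Sod3 from −0.020 to 0.88, Srxn1 from −0.68 to 0.19, Txnip from −0.26 to 0.12, Txnrd1 from −0.29 to 0.50 and Txnrd2 from −0.21 to 0.46. With 2 arrays per group, differences within about 0.46 log2 units were not detectable for a typical gene, before adjustment.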
